A study of Mus musculus with 40 samples.

Results

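The genes described here encode postsynaptic scaffold proteins and proteins associated with them. They are the 4 DLG genes of the membrane-associated guanylate kinase (MAGUK) family (Dlg1, Dlg2, Dlg3 and Dlg4) and gephyrin (Gphn). With them stand the associated scaffold and messenger genes Akap5, Git1 and Nsmf. The genes were chosen by symbol, with no value of these data in the rule, but with earlier results of these data known. They are 8 of the 41388 genes in the counts. All 8 passed the limit on low counts in each comparison, with between 334 and 16003 reads per library.

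Libraries came from mice at 21 d that carried a Cre-dependent transgene for the ribosomal protein Rpl10a fused to EGFP, together with a Cre driver. In RBP4-TRAP mice the Cre was Tg(RBP4-cre)KL100Gsat/Mmcd, which targets layer 5 pyramidal neurons, and in VGAT-TRAP mice it was Slc32a1tm2(cre)Lowl/J, which is driven from the vesicular GABA transporter locus and targets GABAergic neurons. All groups share the reporter, and no library from mice without Cre was analysed here. For each line, 5 pools of 2 to 3 forebrains of both sexes each gave 4 samples: whole-cell homogenate (WCH), ribosomes captured from that homogenate by the EGFP tag (TRAP), the synaptoneurosomal fraction of the homogenate (SNF), in which pinched-off synaptic endings and nearby neurites are concentrated, and ribosomes captured from SNF (SynapTRAP, ST). The labels name the tissue as cortex, whereas the methods describe dissected forebrain, which by the paper's account likely included some dorsal striatum.

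MAGUK proteins hold receptors in place. The DLG proteins carry PDZ domains that bind the tails of NMDA receptor subunits, potassium channels and adhesion proteins, and Dlg4 encodes PSD-95, the most studied scaffold of excitatory synapses. Gephyrin does the same work on the other side of the balance, as a lattice under glycine and GABA-A receptors at inhibitory synapses, and it also catalyzes the last steps of molybdenum cofactor synthesis in all tissues. Several mRNAs for postsynaptic proteins are carried into dendrites and translated there. ST samples ribosome-bound RNA from SNF and does not measure that process directly. The paper states that axons and dendrites cannot be told apart in SNF, nor strictly active translation from stalled messages.

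Total counts per library lay between 14259535 and 22037703. Levels are given as cpm, counts scaled to the library size without the mitochondrial, rRNA and tRNA genes, and 1 read was worth between 0.0455 and 0.112 cpm. The captured cell types were checked with lists of 6 markers each. GABAergic markers summed to between 9102 and 11550 cpm in VGAT TRAP libraries and to between 314 and 714 cpm in RBP4 TRAP libraries. Striatal projection neuron markers summed to between 3178 and 4949 cpm in VGAT TRAP, 472 and 764 cpm in VGAT WCH and 107 and 271 cpm in RBP4 TRAP. All 6 of them were higher in VGAT TRAP than in VGAT WCH. Layer 5 markers rose in RBP4 TRAP over WCH for 4 of 6 genes. In VGAT TRAP over WCH, 3 of these 6 markers were higher and 3 lower. Between the TRAP samples, 3 of the 6 were higher in RBP4 TRAP and 2 were lower. The ST libraries were less clearly marked: 0 of 6 layer 5 markers were higher in RBP4 ST than in SNF, and of the GABAergic markers 2 of 6 were higher in VGAT ST than in SNF and 6 of 6 lower than in VGAT TRAP. VGAT ST replicates 1 and 2 summed to 1158 and 1326 cpm of GABAergic markers, below the 2158 and 2291 cpm of their own SNF libraries. Markers of oligodendrocytes were low in TRAP but their sums reached between 31796 and 44757 cpm in RBP4 ST and between 32577 and 54690 cpm in VGAT ST. These lay above their SNF ranges of 12186 to 18772 cpm and 14880 to 18033 cpm. By gene, 3 of 6 were higher and 0 lower in RBP4 ST over SNF, and 3 higher and 1 lower in the VGAT line. The median log2 fold changes were 0.49 and 0.28. All 6 astrocyte markers rose in SNF over WCH in both lines, with median log2 fold changes of 1.38 and 1.52, and in ST over TRAP all 6 astrocyte, all 6 oligodendrocyte, all 6 microglia and all 6 endothelial markers rose in both lines. Replicate 3 of each line stood apart in its mitochondrial share, at 40.2% and 41.9% of SNF reads against 11.2% to 19.4% in the others and at 15.8% and 19.0% of ST reads against 2.71% to 7.08%, and those SNF libraries held 24784 and 24494 cpm of astrocyte markers against at most 13078 cpm in the others. The part of these markers and of the mitochondrial share in the SNF and ST values below was not tested. In SNF against WCH the median log2 fold change over all genes was -0.50 in RBP4 mice and -0.52 in VGAT mice, and in TRAP against WCH it was -0.34 and -0.31, so that a gene with no fold change on this scale lies above the middle of the distribution.

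**Figure D1:**
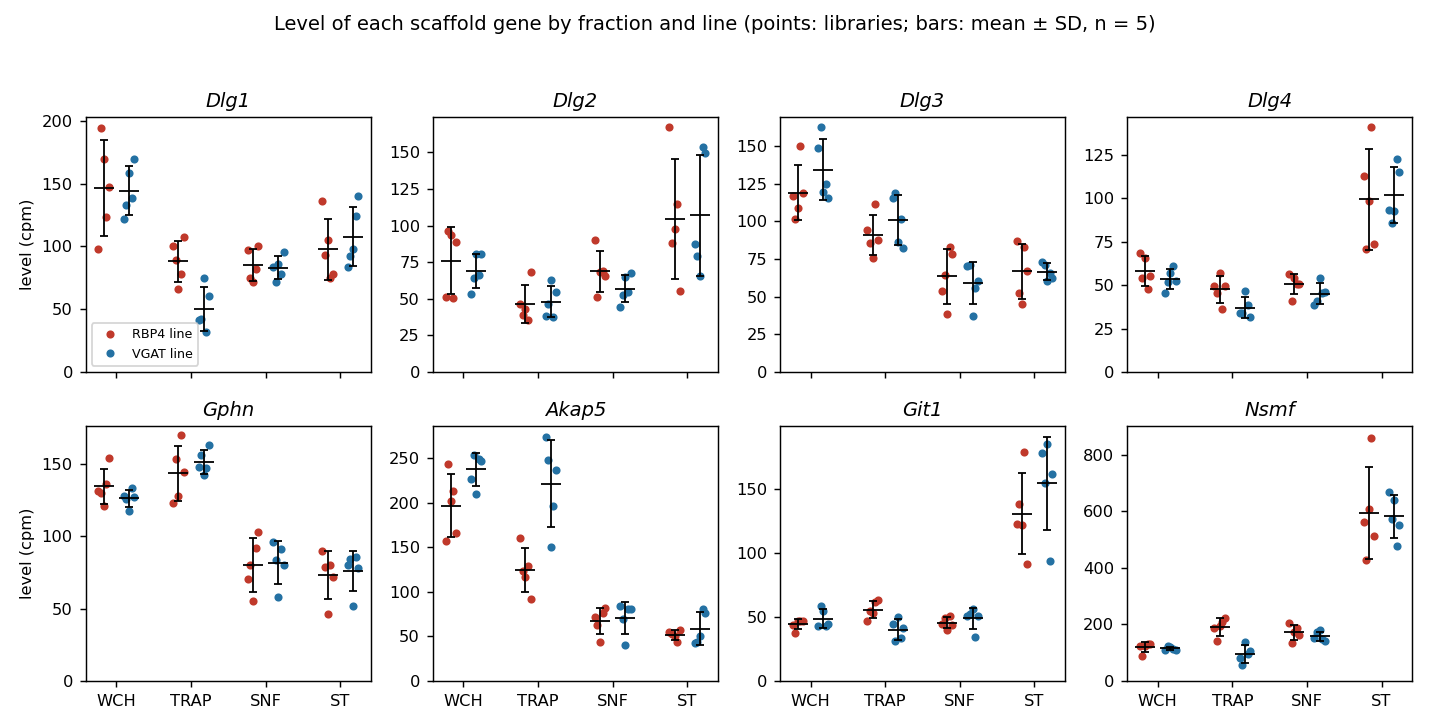
Level of each of the 8 genes (y axis, cpm, from 0) in the 4 fractions (x axis) of the RBP4 line (red) and the VGAT line (blue); points are libraries and bars are the mean and SD of 5. Nsmf, Git1, Dlg4 and Dlg2 have their highest means in ST in both lines, and Akap5 and Gphn their lowest. Dlg1 and Nsmf are lower in VGAT TRAP than in RBP4 TRAP.

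Dlg4 encodes PSD-95 and lies at chr11:70017085-70045532 (GRCm38). Its level in the RBP4 line was 56.5, 41.0, 54.2, 50.7 and 50.6 cpm in the SNF libraries and 113, 71.0, 98.7, 141 and 73.5 cpm in the ST libraries. In the VGAT line the SNF libraries held 38.6, 41.0, 54.2, 45.5 and 46.3 cpm and the ST libraries 93.3, 85.8, 92.4, 122 and 115 cpm. Every ST library lay above every SNF library of its line. ST exceeded SNF by a log2 fold change of 0.97 ± 0.19 (SE) in RBP4 mice and of 1.18 ± 0.13 in VGAT mice, with adjusted p-values of 0.00136 and 7.8e-07 in edgeR's quasi-likelihood test. SNF against WCH did not pass in either line (-0.20 ± 0.19 and -0.25 ± 0.13), with SNF higher in 1 of 5 RBP4 pools and 0 of 5 VGAT pools, and the VGAT value passed without pool 3 (-0.30) and with no genes left out (-0.55). Its sign turned on the processing. Over all alternatives it lay between -0.44 and 0.23 in the RBP4 line and between -0.55 and 0.20 in the VGAT line. The paper, by contrast, reports Dlg4 as enriched in SNF in every replicate of each line. TRAP had the lowest means, with libraries between 36.2 and 57.2 cpm in RBP4 mice and between 31.8 and 46.6 cpm in VGAT mice. ST exceeded TRAP by 1.06 ± 0.19 and 1.46 ± 0.13 on the log2 scale (adjusted p = 5.1e-05 and 3.63e-09, edgeR). TRAP against WCH passed in the VGAT line (-0.54 ± 0.13) and not in the RBP4 line (-0.29 ± 0.18), a difference between lines that was not tested, and the VGAT call was lost with TMM factors (-0.28).

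Dlg1 encodes SAP97, a MAGUK that is also found at epithelial junctions and early in the transport of AMPA receptors (chr16:31663443-31873356). It had its highest level in WCH, with a mean of 147 ± 37.9 cpm (SD, n = 5) in RBP4 mice and 144 ± 19.4 cpm in VGAT mice. The captured ribosomes of GABAergic neurons held the least of it: 41.7, 42.1, 75.1, 32.1 and 60.3 cpm in VGAT TRAP against 122, 133, 159, 139 and 169.5 cpm in VGAT WCH. These groups did not overlap, and TRAP was lower by a log2 fold change of -1.52 ± 0.19 (adjusted p = 7.36e-07, edgeR). Fewer cells that express a gene and less of its RNA in each cell cannot be told apart in such bulk samples. In the RBP4 line TRAP held 100.2, 89.0, 66.1, 77.7 and 107 cpm against 97.6, 195, 169, 124 and 148 cpm in WCH. Here the ranges overlapped through replicate 1 of WCH, and the log2 fold change was -0.74 ± 0.20 (adjusted p = 0.00594, edgeR), a call that was lost with TMM factors (-0.45), with DESeq2 (-0.47), and without pool 2 (-0.62) or pool 3 (-0.59). SNF lay below WCH in both lines, by -0.78 ± 0.20 and -0.80 ± 0.19, but with DESeq2 these were -0.37 and -0.35 and were not called. ST against SNF did not pass the threshold in either line (0.19 ± 0.20 and 0.38 ± 0.18).

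Dlg2 encodes PSD-93, a close relative of PSD-95 that likewise binds NMDA receptors, and spans chr7:91090706-92447003, the longest locus of the 8. ST libraries held 167, 88.2, 97.6, 115 and 55.6 cpm in RBP4 mice and 87.3, 79.4, 65.3, 154 and 149 cpm in VGAT mice. The spread within ST was the widest of the DLG genes, and the lowest ST library of each line lay within the range of its SNF group, at 50.9 to 90.3 cpm and 44.6 to 67.5 cpm. ST exceeded SNF by 0.91 ± 0.21 on the log2 scale in the VGAT line (adjusted p = 0.00232, edgeR) and by 0.61 ± 0.26 in the RBP4 line, which did not pass (adjusted p = 0.131, edgeR). The RBP4 value passed without pool 5 (0.75, adjusted p = 0.0493, edgeR) and with no genes left out (0.85, adjusted p = 0.0397, edgeR). The difference between these 2 values was tested directly and was not called (-0.31 ± 0.34, adjusted p = 0.998, edgeR). ST against TRAP was called in both lines, at 1.17 ± 0.26 and 1.16 ± 0.21. TRAP lay below WCH in every pool of both lines (-0.71 ± 0.26 and -0.52 ± 0.21, adjusted p = 0.031 and 0.0353, edgeR), and with TMM factors neither value was called (-0.43 and -0.27). Both calls were also lost with no genes left out (-0.62 and -0.46), the RBP4 call without pool 2, 3 or 4 and the VGAT call without pool 1, 2, 4 or 5.

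Dlg3 encodes SAP102, the MAGUK that dominates at young excitatory synapses, from chrX:100767722-100818410. WCH held the most, at 119 ± 18.5 cpm in RBP4 mice and 134 ± 20.5 cpm in VGAT mice, and SNF fell to 63.6 ± 18.3 cpm and 59.2 ± 13.8 cpm. The SNF and WCH groups did not overlap in either line, and the log2 fold changes were -0.90 ± 0.21 (adjusted p = 0.00145, edgeR) and -1.18 ± 0.16 (adjusted p = 1.7e-06, edgeR). With DESeq2 size factors in edgeR the RBP4 call was lost (-0.48, adjusted p = 0.0546, edgeR). The SNF library of replicate 3, with its high mitochondrial share, held the least Dlg3 of each SNF group (38.5 and 37.3 cpm), and both calls held without that pool. TRAP against WCH passed in the VGAT line (-0.41 ± 0.15, adjusted p = 0.0241, edgeR), though not with TMM factors (-0.16) or without pool 2, 4 or 5. In the RBP4 line it was -0.39 ± 0.21 (adjusted p = 0.137, edgeR), and it passed with the pool as a block (-0.39, adjusted p = 0.0434, edgeR). In ST its level was 66.9 ± 18.2 cpm and 66.5 ± 5.54 cpm, with log2 fold changes over SNF of 0.07 ± 0.21 and 0.17 ± 0.15 that did not pass. ST lay below TRAP in the VGAT line (-0.60 ± 0.15, adjusted p = 0.00145, edgeR). The same contrast in the RBP4 line was -0.44 ± 0.21 and did not pass (adjusted p = 0.0741, edgeR). It passed with the pool as a block (-0.47, adjusted p = 0.0147, edgeR), in the fit of all 40 libraries (adjusted p = 0.0364, edgeR) and without RBP4 ST replicate 4 (-0.53, adjusted p = 0.0458, edgeR).

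Gphn, at chr12:78226655-78684767, encodes gephyrin. Its TRAP libraries held 123, 153, 128, 170.0 and 144 cpm in RBP4 mice and 148, 156, 142, 147 and 163 cpm in VGAT mice. ST libraries held 90.1, 78.8, 46.1, 80.0 and 72.2 cpm and 80.5, 84.0, 51.6, 85.8 and 78.4 cpm. TRAP and ST did not overlap in either line, and ST was lower by -0.97 ± 0.18 and -0.99 ± 0.14 on the log2 scale (adjusted p = 0.000117 and 1.1e-06, edgeR). In the VGAT line every TRAP library also lay above every WCH library, which held 118 to 134 cpm, yet the log2 fold change of 0.26 ± 0.13 did not pass (adjusted p = 0.095, edgeR). It passed with the pool as a block (0.26, adjusted p = 0.0386, edgeR), with TMM factors (0.51) and without VGAT pool 3 (0.26, adjusted p = 0.0219, edgeR). SNF lay below WCH in both lines, at -0.75 ± 0.18 and -0.63 ± 0.14. With DESeq2 these became -0.33 and -0.17 and were not called. Replicate 3 was again the lowest SNF library of each line (55.1 and 57.9 cpm), and both calls held without that pool.

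Akap5 encodes AKAP79/150, which anchors protein kinase A, protein kinase C and calcineurin next to the DLG scaffolds and their receptors, and has only 2 exon blocks, at chr12:76324891-76334153. It showed the largest fall of the 8 between WCH and SNF. RBP4 WCH libraries held 157, 243, 202, 213 and 165 cpm, and the SNF libraries 71.2, 63.3, 44.0, 76.5 and 82.0 cpm. VGAT WCH libraries held 226, 254, 209.9, 249 and 247 cpm, and the SNF libraries 83.6, 69.1, 39.9, 80.7 and 80.2 cpm. The groups stood well apart in each line, with log2 fold changes of -1.54 ± 0.18 and -1.74 ± 0.21 (adjusted p = 6.89e-05 and 6.32e-07, edgeR), the 1.90 and 0.936 percentiles of all genes tested. Replicate 3 was the lowest SNF library of each line here too, and both calls held without that pool. ST did not rise over SNF again (-0.38 ± 0.18 and -0.27 ± 0.21, neither past the threshold), and RBP4 ST was the lowest group at 51.7 ± 5.37 cpm. TRAP lay below WCH in the RBP4 line (-0.66 ± 0.18, adjusted p = 0.00611, edgeR), a call lost with TMM factors (-0.37) and without pool 2 (-0.57).

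Git1 encodes a GTPase-activating protein for Arf proteins that binds PIX and PAK and shapes dendritic spines (chr11:77493562-77507786). SNF libraries held 44.1, 48.9, 39.8, 51.0 and 43.6 cpm in the RBP4 line against 37.7 to 47.1 cpm in WCH, and 50.3, 52.5, 56.4, 34.5 and 50.3 cpm in the VGAT line against 42.5 to 58.7 cpm. Those ranges overlapped, and the log2 fold changes of 0.03 ± 0.16 and 0.00 ± 0.18 were not called, although with DESeq2 they were 0.48 and 0.46 and were called. ST libraries held 122, 138, 122, 179 and 91.4 cpm in RBP4 mice and 178, 154, 185, 93.2 and 162 cpm in VGAT mice. All lay above all SNF libraries, by 1.52 ± 0.16 and 1.66 ± 0.18 on the log2 scale (adjusted p = 1.22e-05 and 4.21e-07, edgeR), the 98.5 and 98.7 percentiles of all genes tested.

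Nsmf encodes Jacob, a messenger that travels from NMDA receptors at the synapse to the nucleus, where it acts on CREB (chr2:25054355-25062881). It had the widest span of the 8, 6.23 times between its highest and its lowest group mean. ST libraries held 562, 426, 608, 861 and 513 cpm in RBP4 mice and 670.5, 573, 641, 478 and 553 cpm in VGAT mice. SNF libraries held 204, 136, 174, 188 and 161 cpm, and 152, 172, 179.5, 147 and 142 cpm. WCH libraries held 123, 88.3, 125, 129.6 and 130.4 cpm, and 109.7, 124, 119, 113 and 108 cpm. The 3 fractions stood in this order in every pool of both lines, with no overlap between neighbours. ST exceeded SNF by 1.78 ± 0.19 and 1.88 ± 0.17 on the log2 scale (adjusted p = 1.22e-05 and 3.39e-08, edgeR), the 99.1 and 99.3 percentiles of all genes tested. SNF exceeded WCH by 0.53 ± 0.19 and 0.46 ± 0.16 (adjusted p = 0.0224 and 0.0173, edgeR), and those 2 calls were lost when mitochondrial and ribosomal RNA genes were kept in the library sizes (0.30 and 0.17). The RBP4 call was also lost without pool 1 (0.48) or pool 3 (0.55).

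Counted over the 8 genes, SNF against WCH gave 1 higher, 4 lower and 3 not called in the RBP4 line, where 13.4% of all genes were called higher and 36.1% lower. The VGAT line gave the same counts, beside 19.3% and 45.2% of all genes. With DESeq2 the split was 2 higher and 2 lower in each line, and with DESeq2 size factors in edgeR it was 2 higher and 1 lower in the RBP4 line. The members' medians of -0.48 and -0.45 lay close to those of all genes. ST against SNF gave 3 higher and 0 lower in the RBP4 line beside 5.64% and 5.46% of all genes, and 4 higher and 0 lower in the VGAT line beside 16.3% and 11.2%, with members' medians of 0.40 and 0.64 against -0.05 and 0.08 over all genes. At an unadjusted p under 0.05, 5 and 4 of the 8 values passed in either direction, and DESeq2 also called none lower. ST against TRAP called 4 higher and 2 lower in the RBP4 line (26.0% and 29.1% of all genes) and 5 higher and 3 lower in the VGAT line (37.5% and 34.0%). In the VGAT line the ST and TRAP libraries did not overlap for any of the 8 genes. The share of all genes with no such overlap was not counted. TRAP against WCH called 1 higher and 3 lower in the RBP4 line (8.37% and 31.5%) and 0 higher and 4 lower in the VGAT line (21.0% and 41.8%), where 4 values passed at an unadjusted p under 0.05 and DESeq2 called Gphn higher. With DESeq2 or TMM factors the RBP4 split became 2 higher and 0 lower, as Git1 was gained and Dlg1, Dlg2 and Akap5 were lost. With TMM factors the VGAT split became 1 higher and 1 lower. With TMM factors the fitted values of the members rose by a median of 0.33 and 0.35 for SNF against WCH and of 0.29 and 0.25 for TRAP against WCH, and by 0.04 and -0.11 for ST against SNF.

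**Figure D2:**
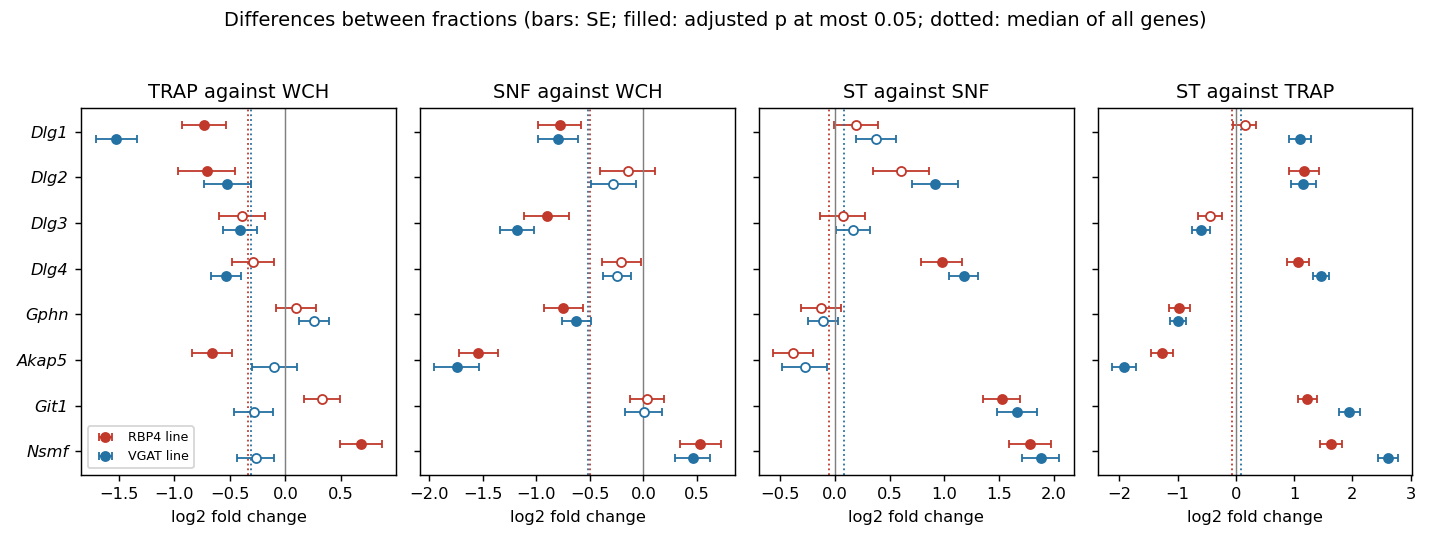
Log2 fold change (x axis) of each gene (y axis) in 4 comparisons between fractions for the RBP4 line (red) and the VGAT line (blue); bars are SE, filled points have an adjusted p of at most 0.05, and dotted lines mark the median of all genes. Nsmf, Git1 and Dlg4 lie to the right in ST against SNF, at 0.97 or more in both lines, and Akap5 lies farthest to the left in SNF against WCH.

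Levels of different genes were compared per kb of exon, a scale that may understate long genes here, because the reads of these libraries lie mostly toward the 3′ ends of transcripts. Without division by length Gphn (135 ± 12.1 cpm) had a lower mean in RBP4 WCH than Akap5 (196 ± 35.3 cpm) and Dlg1 (147 ± 37.9 cpm). Per kb, the order in RBP4 WCH was Gphn (39.6 ± 3.56 cpm per kb), Akap5 (28.8 ± 5.18), Nsmf (24.3 ± 3.59), Dlg3 (20.4 ± 3.17), Dlg1 (16.4 ± 4.23), Dlg4 (11.7 ± 1.72), Git1 (9.18 ± 0.843) and Dlg2 (7.35 ± 2.23). Only Gphn stood apart from its neighbour, and the other neighbours in this order overlapped. In RBP4 ST, Nsmf led with 121 ± 33.4 cpm per kb, apart from Git1 at 27.0 ± 6.59, and Akap5 closed the order at 7.58 ± 0.786. The VGAT ST order also opened with Nsmf (119 ± 15.5 cpm per kb) and Git1 (31.9 ± 7.50) and closed with Akap5 (8.58 ± 2.69). Between them Gphn (22.4 ± 4.12) and Dlg4 (20.4 ± 3.21) overlapped in range, Dlg4 stood apart from Dlg1 below it, and Dlg1, Dlg3 and Dlg2 overlapped in turn.

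A ratio of 2 genes within 1 library does not depend on how libraries are scaled, so the reads of Dlg1, Dlg2, Dlg3 and Gphn were divided by those of Dlg4. Of 40 such comparisons, 13 passed a 2-sided exact permutation test of 5 against 5 libraries after Benjamini-Hochberg adjustment, for which the smallest p that the arrangements can give is 0.00794. The ratio of Gphn to Dlg4, an inhibitory against an excitatory scaffold, had geometric means of 3.03 in RBP4 TRAP and 0.746 in RBP4 ST, a 4.06-fold difference, and of 4.13 in VGAT TRAP and 0.742 in VGAT ST, a 5.57-fold difference (exact permutation p = 0.00794 and adjusted p = 0.0265 for each). In every TRAP library of both lines Gphn had more reads than Dlg4, and in all 5 VGAT ST libraries it had fewer. Dlg3 to Dlg4 moved the same way, from 1.92 to 0.675 in RBP4 mice and from 2.73 to 0.658 in VGAT mice. For Dlg2 the ratio to Dlg4 stayed between 0.961 and 1.34 over all 8 groups, and 0 of its 10 comparisons passed after adjustment. The ratio of Dlg1 to Dlg4 fell from SNF to ST in both lines, from 1.68 to 0.992 and from 1.84 to 1.05 (exact permutation adjusted p = 0.0265 for each). In ST the 4 ratios differed between the lines by at most 1.06-fold, and the smallest exact permutation p was 0.873.

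**Figure D3:**
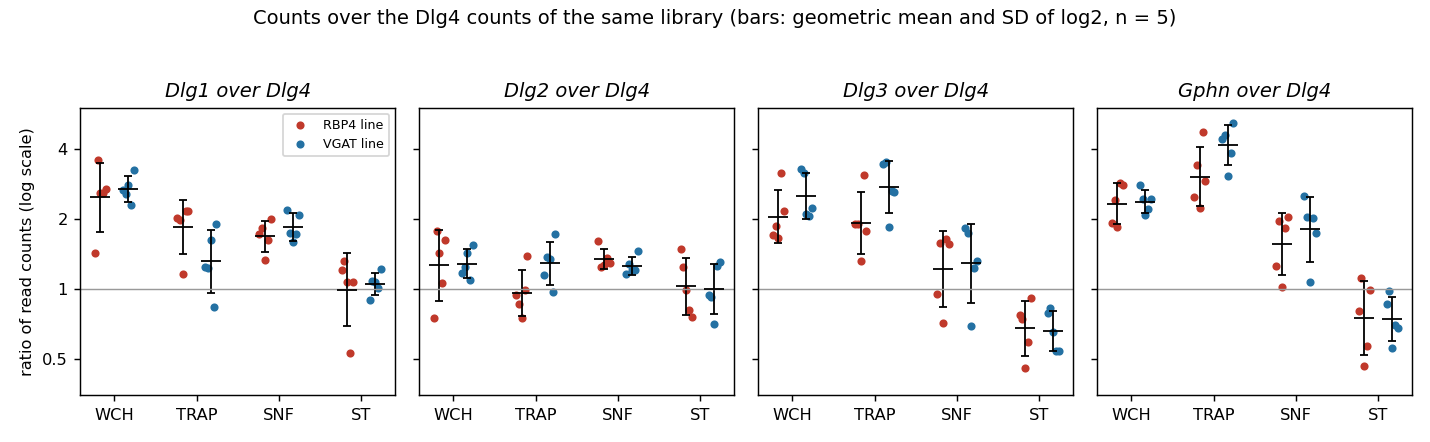
Reads of Dlg1, Dlg2, Dlg3 and Gphn over the Dlg4 reads of the same library (y axis, log scale) by fraction (x axis) and line (RBP4 red, VGAT blue); points are libraries, and bars are the geometric mean and the SD of the log2 ratio, n = 5. Gphn and Dlg3 drop below 1 in ST from 1.92 or more in TRAP, whereas Dlg2 stays near 1 in all fractions.

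The next comparisons set the lines against each other within a fraction. Between the TRAP samples, 3 of 8 genes were higher in RBP4 TRAP and 1 was lower, beside 12.9% and 15.1% of all genes. Nsmf held 187, 142, 195, 208 and 224 cpm in RBP4 TRAP and 81.0, 57.4, 139, 94.6 and 104 cpm in VGAT TRAP. The groups did not overlap, with a log2 fold change of 1.001 ± 0.19 (adjusted p = 0.000112, edgeR). Dlg1 was higher in RBP4 TRAP by 0.81 ± 0.21 (adjusted p = 0.00394, edgeR), with some overlap. Git1 was higher by 0.48 ± 0.17 (adjusted p = 0.0371, edgeR), a call lost when RBP4 pool 2, 3, 4 or 5 or VGAT pool 2, 4 or 5 was left out. Akap5 was lower by -0.83 ± 0.18 (adjusted p = 0.00068, edgeR), at 160.3, 123, 117, 129 and 92.3 cpm in RBP4 TRAP against 274, 248, 149.9, 196 and 237 cpm in VGAT TRAP, with overlap through RBP4 replicate 1 and VGAT replicate 3. The oligodendrocyte markers of VGAT TRAP summed to 2413 and 1768 cpm in replicates 3 and 5 and to between 433 and 600 cpm in the others, and these 2 replicates also held the most Dlg1 and Nsmf of their group. RBP4 TRAP replicate 5, with 5508 cpm of these markers against at most 929 cpm in the others, likewise held the most Dlg1 and Nsmf of its group. The part of these markers in the differences was not tested, nor that of striatal neurons, whose markers were high in VGAT TRAP. Dlg1 and Nsmf stayed past the threshold without each pool in turn.

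In ST no gene of the 8 was called between the lines (0 of 8, and 0 at an unadjusted p under 0.05, beside 0.0592% higher and 0.266% lower of all genes), and no alternative called any. Nsmf had means of 594 ± 164 cpm in RBP4 ST and 583 ± 75.7 cpm in VGAT ST, and Dlg4 of 99.3 ± 29.1 and 102 ± 16.0 cpm. The 8 log2 fold changes lay between -0.24 and 0.03, with SE between 0.14 and 0.26, which leaves room for differences that 5 libraries a group cannot show. WCH and SNF also gave 0 of 8 (0 at an unadjusted p under 0.05), beside 0.0118% and 0.0178% of all genes in either direction. GABAergic markers differed less between the lines in ST than in TRAP, at 505 to 1289 cpm in RBP4 ST and 1158 to 4936 cpm in VGAT ST.

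**Figure D4:**
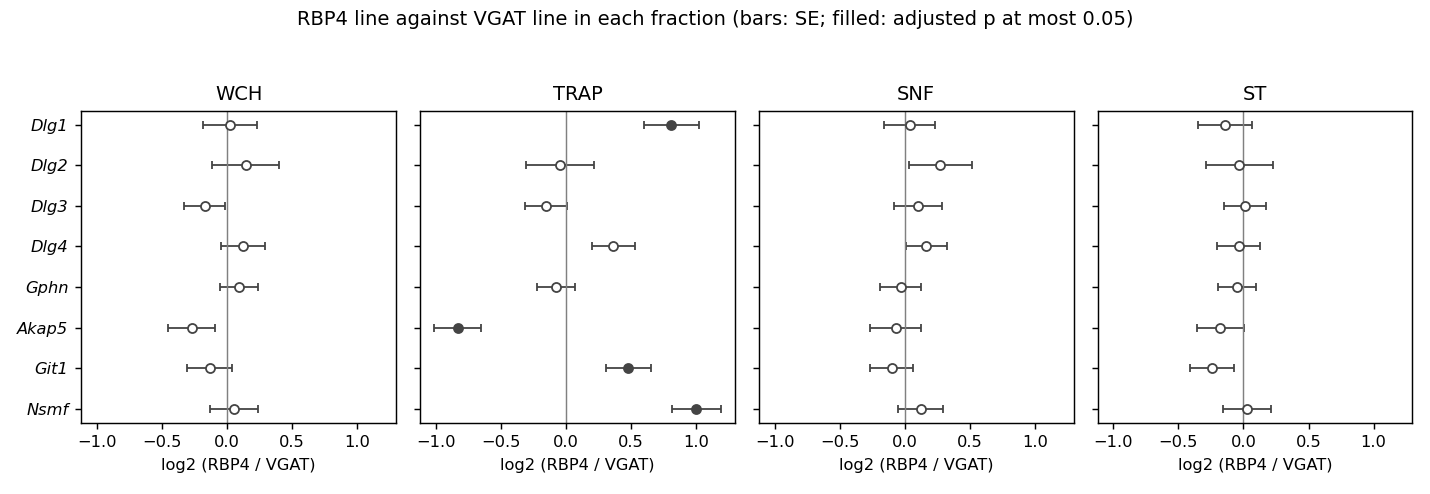
Log2 ratio of the RBP4 line over the VGAT line (x axis) for each gene (y axis) in each of the 4 fractions; bars are SE, and filled points have an adjusted p of at most 0.05. In TRAP 4 points are filled, from -0.83 for Akap5 to 1.001 for Nsmf, and none are filled in WCH, SNF or ST.

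Whether the step from TRAP to ST differed between the lines was tested as an interaction. It was called for 2 of 8 genes, both negative, beside 5.79% of all genes called lower and 5.02% higher. Nsmf rose from TRAP to ST by 1.64 on the log2 scale in RBP4 mice and by 2.61 in VGAT mice, an interaction of -0.97 ± 0.26 (adjusted p = 0.0128, edgeR). For Dlg1 the values were 0.15, which was not called, and 1.10, an interaction of -0.95 ± 0.30 (adjusted p = 0.0346, edgeR). Both genes had lower levels in VGAT TRAP than in RBP4 TRAP and like levels in ST, as given above. The Dlg1 call was lost with TMM factors (-0.88), with DESeq2 (-0.83) and without 7 of the 10 pools in turn, and the Nsmf call was lost only without VGAT pool 1 (-0.87, adjusted p = 0.0629, edgeR). Akap5, at 0.65 ± 0.26, was called in the other direction with DESeq2 (0.76, adjusted p = 0.0338) and with DESeq2 size factors in edgeR (0.76, adjusted p = 0.0499). Git1 reached -0.72 ± 0.24 (adjusted p = 0.0537, edgeR) and passed with the pool as a block (-0.72, adjusted p = 0.036, edgeR). Against SNF instead of TRAP, 0 of 8 interactions were called, beside 0.0% of all genes.

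Local translation candidates were genes that passed both ST over SNF and SNF over WCH, and somatic candidates those that passed both TRAP over WCH and WCH over SNF, each at an unadjusted p under 0.05. Nsmf was the only one of the 8 among the local candidates, in both lines, beside 0.417% of all genes in RBP4 mice and 1.29% in VGAT mice. None of the 8 was a somatic candidate, beside 5.94% and 13.2%. Both lists turn on the scaling of SNF against WCH. With DESeq2, Git1 joined the local candidates in both lines. With TMM factors Git1 joined in the RBP4 line, and Gphn became a somatic candidate in both. With mitochondrial and ribosomal RNA genes kept, an alternative chosen after seeing the data, Nsmf was a local candidate in neither line, and it was lost from the RBP4 list without RBP4 pool 1.

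Partners of these scaffolds were followed as lists drawn up from general knowledge, also with earlier results of these data known. Of 36 excitatory scaffold partners, such as the SHANK, SAPAP and Homer proteins that link the DLG scaffolds to the cytoskeleton, 14 were higher and 6 lower in ST over SNF in the RBP4 line, and 18 and 8 in the VGAT line, with list medians of 0.19 and 0.40. Over all genes 5.64% were higher and 5.46% lower in the RBP4 line and 16.3% and 11.2% in the VGAT line, with medians of -0.05 and 0.08. Shank3 rose by 2.32 ± 0.28 in the RBP4 line (adjusted p = 2.06e-05, edgeR), and Dlgap3 by 2.47 ± 0.18 in the VGAT line (adjusted p = 2.99e-09, edgeR). The postsynaptic adhesion gene Lrrtm2 fell in both, by -1.23 ± 0.28 and -1.50 ± 0.15. Those partners therefore moved in both directions.

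Of 19 inhibitory scaffold partners, 3 were higher and 1 lower in RBP4 ST over SNF, and 6 and 2 in the VGAT line, beside the same shares of all genes. Iqsec3, an Arf exchange factor that binds gephyrin, rose by 1.65 ± 0.21 and 1.74 ± 0.13 (adjusted p = 3.6e-05 and 3.83e-09, edgeR), while Gphn itself did not rise. Slitrk3, an adhesion protein of inhibitory synapses, fell by -1.02 ± 0.31 and -0.86 ± 0.18. In SNF over WCH, 4 of the 19 were higher and 9 lower in the RBP4 line, and 6 and 10 in the VGAT line, beside 13.4% and 36.1% and beside 19.3% and 45.2% of all genes. The adhesion gene Nlgn2 rose by 1.02 ± 0.19 and 1.20 ± 0.15, and Nsf, which encodes a factor of membrane fusion, fell by -1.12 ± 0.23 and -1.34 ± 0.18.

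The smaller lists were also counted in ST over SNF, where 5.64% and 16.3% of all genes were higher and 5.46% and 11.2% lower. Of 15 Git1 partners, 3 and 7 were higher and none lower, among them the PIX gene Arhgef7 (0.63 ± 0.16 and 0.83 ± 0.11). Of 14 measured Akap5 partners, 1 and 3 were higher and 0 and 2 lower, and the protein kinase C gene Prkcb rose by 1.13 ± 0.18 and 1.08 ± 0.14. Mapk3, the ERK1 kinase that phosphorylates Jacob, was the only one of 6 Nsmf partners to be called, at 0.75 ± 0.22 and 0.998 ± 0.15. Among 9 measured other DLG and MAGUK genes 3 were higher in each line, with the tight junction gene Tjp1 at 0.94 ± 0.24 and 0.71 ± 0.16. Between the lines in TRAP, 13 of 36 excitatory partners were higher in RBP4 and 0 lower, beside 12.9% and 15.1% of all genes. Of these 13, Cnksr2, a scaffold of the Ras pathway, had the smallest p, at 0.996 ± 0.16 (adjusted p = 1.43e-05, edgeR). The same comparison in ST called 0 of the genes on any of the 6 lists.

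Across the 40 libraries the members fell into groups of like level, as Pearson correlations of log2(cpm + 1) that are given as a description, since libraries of 1 fraction share their preparation. Git1 and Nsmf had r = 0.938, Dlg4 and Nsmf 0.848, and Dlg4 and Git1 0.820. Dlg2 had r = 0.80 with Dlg4, 0.57 with Nsmf and 0.56 with Git1. Gphn and Akap5 had r = 0.841, Dlg3 and Akap5 0.830, and Dlg3 and Gphn 0.816. Between the 2 sets Akap5 and Nsmf had r = -0.785. Among 9113 genes of at least 10 cpm, those most like Nsmf were B4galt2 (r = 0.976) and Palm (0.972), those most like Dlg4 were Wdr13 (0.935) and Ppp1r12b (0.922), and those most like Git1 were Cacnb3 (0.960) and Grk2 (0.958). Ttll1 (0.974) and Fbxo25 (0.952) were most like Gphn, Elavl2 (0.961) and Gucy1a1 (0.958) most like Akap5, Synj1 (0.938) and Kif3b (0.931) most like Dlg3, Stxbp4 (0.903) and Ankrd28 (0.895) most like Dlg1, and Dmd (0.818) and Dusp8 (0.816) most like Dlg2.

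The genes also differed in their 3′ UTRs, which were read from the APPRIS principal transcripts of GENCODE M21 (GRCm38). Git1, Nsmf and Dlg4 had 3′ UTRs of 59.3%, 56.9% and 55.7% GC, the 98.4, 96.1 and 93.6 percentiles of 14803 genes, whose median was 44.5%. The other 5 lay between 36.6% for Gphn and 46.5% for Dlg3. These 3 GC-rich members are the 3 that were called higher in ST over SNF in both lines. Over all genes the rank correlation of 3′ UTR GC content with the log2 fold change of ST over SNF was 0.163 in the RBP4 line (14568 genes) and 0.289 in the VGAT line (14503 genes), a weak relation across genes, which are not independent replicates. The relation was not particular to ST over SNF. In the other comparisons of fractions within a line it was also positive, from 0.116 to 0.212, the highest in RBP4 SNF against WCH. Length did not sort the members this way: Dlg2 (4630 bases) and Akap5 (4097 bases) had the longest 3′ UTRs, and Dlg4 (837 bases), Gphn (856 bases), Nsmf (1112 bases) and Git1 (1178 bases) the shortest. Why GC-rich genes stood higher was not tested.

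**Figure D5:**
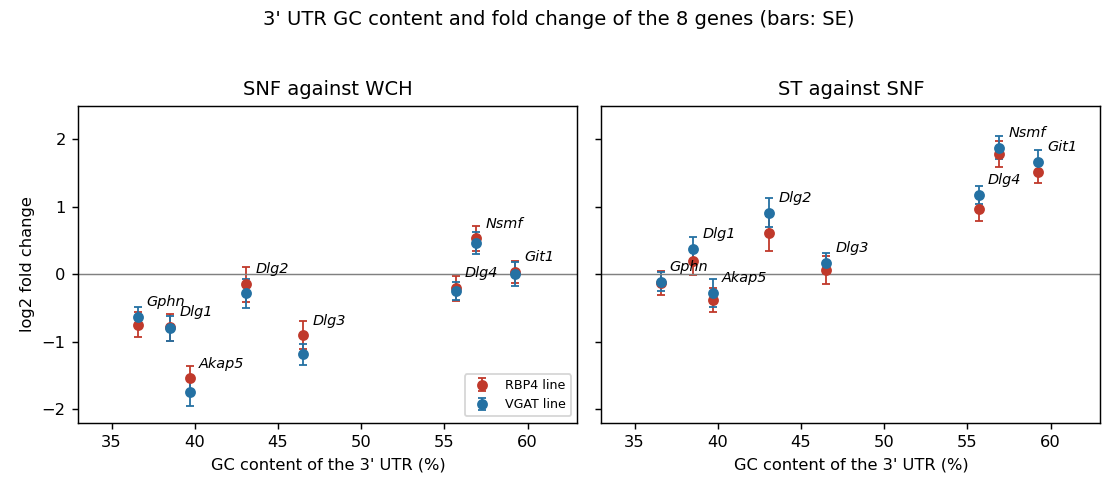
GC content of the 3′ UTR (x axis, percent) and log2 fold change (y axis) of the 8 genes in SNF against WCH (left) and ST against SNF (right), in the RBP4 line (red) and the VGAT line (blue); bars are SE. Dlg4, Nsmf and Git1 lie at 55.7% GC or more and have the 3 highest values in ST against SNF in each line.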

How the data were processed

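RNA was measured by RNA-seq in 40 libraries, 8 groups of 5. The authors deposited gene-level counts, CPM and RPKM, and the deposited CPM and RPKM were recomputed from those counts as a check and not tested. The authors aligned reads with STAR 2.0.4b and counted them with featureCounts 1.4.5. From the counts, 390 genes (37 of the mitochondrial chromosome and 353 rRNA and tRNA genes) were left out and library sizes taken from the rest, 8950847 to 21976631 counts. Genes with at least 0.5 cpm in 3 libraries were kept. The quasi-likelihood test of edgeR 4.0.16 (group only, Benjamini-Hochberg adjusted p of at most 0.05) was fitted on 20 libraries a line, 30 for comparisons between lines and 40 where SNF was compared between lines. The outcome of its trial on simulated data is not reported here. Ratios to Dlg4 used exact permutation. Levels per kb used the exon length in the files. Likelihood ratio test, DESeq2 1.42.0, TMM, filters, pool block and leaving out pools were tried. The members, lists and tests were chosen with earlier results of these data known. Named partners were at most the 2 called genes with the smallest p in each direction per list and comparison. Genes like a member were the 2 with the highest r. The same-numbered samples come from the same pool, and their deviations correlated on average by between -0.011 and 0.477. The 5 samples a group are separate pools.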

Additional observations from a re-analysis of the deposited data

Results flagged for a closer look

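In 3 of 64 groups of 5 libraries a single library stood apart by Dixon's test at the 95% level, and chance gives about 1 in 20: Gphn in VGAT ST replicate 3 (51.6 cpm, a library with a mitochondrial share of 19.0%, whose part was not tested), Git1 in VGAT SNF replicate 4 (34.5 cpm) and Nsmf in RBP4 WCH replicate 2 (88.3 cpm). The step from TRAP to ST differed between the lines for Dlg1 (-0.95, adjusted p = 0.0346, edgeR) and Nsmf (-0.97, adjusted p = 0.0128, edgeR).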

How the results depend on the processing

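In each case below the cause was not tested. Genes called in RBP4 TRAP against WCH went from 4 (1 higher, 3 lower) to 2 (2 higher, 0 lower) with DESeq2, TMM factors or DESeq2 size factors, and in RBP4 SNF against WCH from 5 (1 higher, 4 lower) to 3 (2 higher, 1 lower) with DESeq2 size factors. VGAT TRAP against WCH went from 4 to 2 with TMM factors, with no genes left out and with all 40 libraries. The interaction of ST less TRAP went from 2 to 1 with TMM factors, and with DESeq2 it stayed at 2 but with Dlg1 lost and Akap5 gained in the other direction. Local candidates went from 1 to 2 with DESeq2 and DESeq2 size factors in both lines and with TMM factors in the RBP4 line, and to 0 in both with no genes left out, a setting added after seeing the data. Somatic candidates went from 0 to 1 with TMM factors in both lines.

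Leaving out each pool in turn gave between 1 and 4 calls for RBP4 TRAP against WCH (1 without RBP4 replicate 2, 2 without replicate 3), between 2 and 6 for VGAT TRAP against WCH (2 without VGAT replicate 2, 4 or 5, 6 without replicate 3), between 0 and 2 for the interaction of ST less TRAP (0 without VGAT replicate 1), between 0 and 1 for RBP4 local candidates (0 without RBP4 replicate 1) and between 0 and 1 for VGAT somatic candidates (1 without VGAT replicate 3).

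With the pool as a replicate block, somatic candidates in the VGAT line went from 0 to 1. The ratios to Dlg4 went from 13 calls to 0, since 5 paired sign flips cannot give a p under the threshold. Single calls that the block changed are given beside their results.

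Of 1832 values for single genes under the alternatives, 32 passed the threshold newly and 69 no longer did. The rest kept their call, and 101 values called in neither setting changed sign. Between the lines in ST the SE of 0.14 to 0.26 limits what 5 libraries a group can show.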
